A study of Homo sapiens with 13 samples.

Results

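The regions described here are the accessible sites of the 4 HOX gene clusters in T98G, a human glioblastoma cell line, with cells held in G1 or in M-phase. Members were all ATAC-seq peaks that overlapped the body, extended by 2 kb on both sides, of a protein-coding HOXA, HOXB, HOXC or HOXD gene, and 50 of 129347 peaks met this rule. The choice used gene positions only and no measured value. ATAC-seq cuts open chromatin with a transposase, so the number of reads in a peak reflects how accessible that stretch of DNA was. The 3 G1 libraries came from cells starved of serum for 72 h. The 3 M-phase libraries came from cells starved for 48 h, released for 36 h into medium with nocodazole, which blocks the mitotic spindle, and collected by shaking off the rounded cells. G1 cells were arrested by starvation and M-phase cells had been fed again, so the phase and the return of serum cannot be told apart. The G1 libraries were sequenced on a HiSeq and the M-phase libraries on a HiSeq and a NextSeq, so platform and phase cannot be told apart either. The labels do not say whether replicates were separate cultures, so p-values measure the spread between these libraries.

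HOX genes encode homeodomain transcription factors that give cells their position along the body axis. They stand in clusters in the order of their action, from anterior genes with low numbers to posterior genes with high numbers, and genes with the same number in different clusters are paralogues. Polycomb proteins keep unused HOX genes closed, and Trithorax proteins keep used ones active. Glioblastoma cells often express HOX genes that normal brain does not.

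The annotation held 39 protein-coding HOX genes, 11 in HOXA on chromosome 7, 10 in HOXB on chromosome 17, 9 in HOXC on chromosome 12 and 9 in HOXD on chromosome 2. A member peak lay in the extended body of 32 of them. The other 7, HOXA7, HOXB1, HOXB2, HOXB5, HOXB13, HOXC8 and HOXC12, had none. Members numbered 17 in HOXA, 9 in HOXB, 9 in HOXC and 15 in HOXD, and 17 genes had a member over one of their own transcript starts. HOXB had a single such start, that of HOXB4, while HOXA had 6 and HOXC and HOXD had 5 each.

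HOX peaks were long and rich in CpG, the dinucleotide that marks CpG islands. Their median width was 635.5 bp against 254 bp for all peaks, and their median GC content was 64.2% against 50.6%. A peak was called CpG-rich at 200 bp or more, with GC of at least 50% and a ratio of observed to expected CpG of at least 0.6. This held for 28 of the 50 members (56.0%) and for 10.8% of all peaks. Promoter peaks, those over any annotated transcript start, made up 22 members (44%) and 12.5% of all peaks. The sequences of 3 peaks that the results below turn on are given from the plus strand of hg19, with every CpG in capitals. They show the peak with the largest fall, the peak with the largest rise, and a peak that fell within posterior HOXD. The HOXA3 stretch at chr7:27150380-27150676 holds 14 CpGs in 297 bases, the HOXC stretch at chr12:54411839-54412138 holds 20 in 300 and the HOXD stretch at chr2:176971351-176971650 holds 15 in 300.
HOXA3 exon edge: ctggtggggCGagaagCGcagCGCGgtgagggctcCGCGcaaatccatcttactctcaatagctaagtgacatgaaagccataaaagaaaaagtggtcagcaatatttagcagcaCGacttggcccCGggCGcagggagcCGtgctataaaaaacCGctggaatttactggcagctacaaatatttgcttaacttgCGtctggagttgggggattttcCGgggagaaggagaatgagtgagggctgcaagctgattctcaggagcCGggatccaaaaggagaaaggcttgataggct
HOXC4/HOXC6 intron: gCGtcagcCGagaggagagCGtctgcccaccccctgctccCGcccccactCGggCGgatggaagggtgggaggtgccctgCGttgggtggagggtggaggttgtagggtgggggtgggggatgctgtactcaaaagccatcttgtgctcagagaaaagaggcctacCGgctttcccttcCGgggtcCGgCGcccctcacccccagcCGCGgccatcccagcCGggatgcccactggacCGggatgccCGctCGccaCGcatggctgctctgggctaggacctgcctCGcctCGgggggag
HOXD11 intron: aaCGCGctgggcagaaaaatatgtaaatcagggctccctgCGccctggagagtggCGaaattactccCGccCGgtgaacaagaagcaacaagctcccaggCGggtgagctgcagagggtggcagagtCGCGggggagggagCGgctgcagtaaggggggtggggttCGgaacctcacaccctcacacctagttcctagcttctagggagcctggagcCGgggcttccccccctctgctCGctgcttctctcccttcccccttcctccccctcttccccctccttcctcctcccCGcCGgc

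Values are scaled counts, which are reads per peak that the authors scaled to one library size. Changes are M-phase over G1 on the log2(scaled count + 8) scale, and the test was limma over all 73121 peaks that passed a filter on low values, with a threshold of 0.05 on the Benjamini-Hochberg adjusted p. Of the 50 members, 44 passed the filter. Among these, 5 rose in M-phase, or 11.4%, beside 14.3% of all tested peaks. A further 4 fell, or 9.09%, beside 13.1% of all tested peaks. Both shares were near those of the whole table. The 5 that rose were the HOXC4/HOXC6 intron, the starts of HOXC13, HOXC10 and HOXD8, and an inner start of HOXA3. Those that fell were the HOXA3 exon edge and 3 peaks of posterior HOXD. All 3 M-phase libraries lay above all 3 G1 libraries at 11 members (16.6% of all peaks did) and below them at 5 (13.6% of all peaks did). The median change was 0.15 over the 50 members and 0.07 over all peaks, and single members ran from -1.12 to 1.11. The split moved with the scaling. TMM gave 5 members higher and 7 lower, beside 12.3% and 17.5% of all tested peaks, equal totals in peaks gave 3 and 8, beside 8.75% and 25%, and a loess scaling gave 1 and 11, beside 9.99% and 14.6%.

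**Figure D1:**
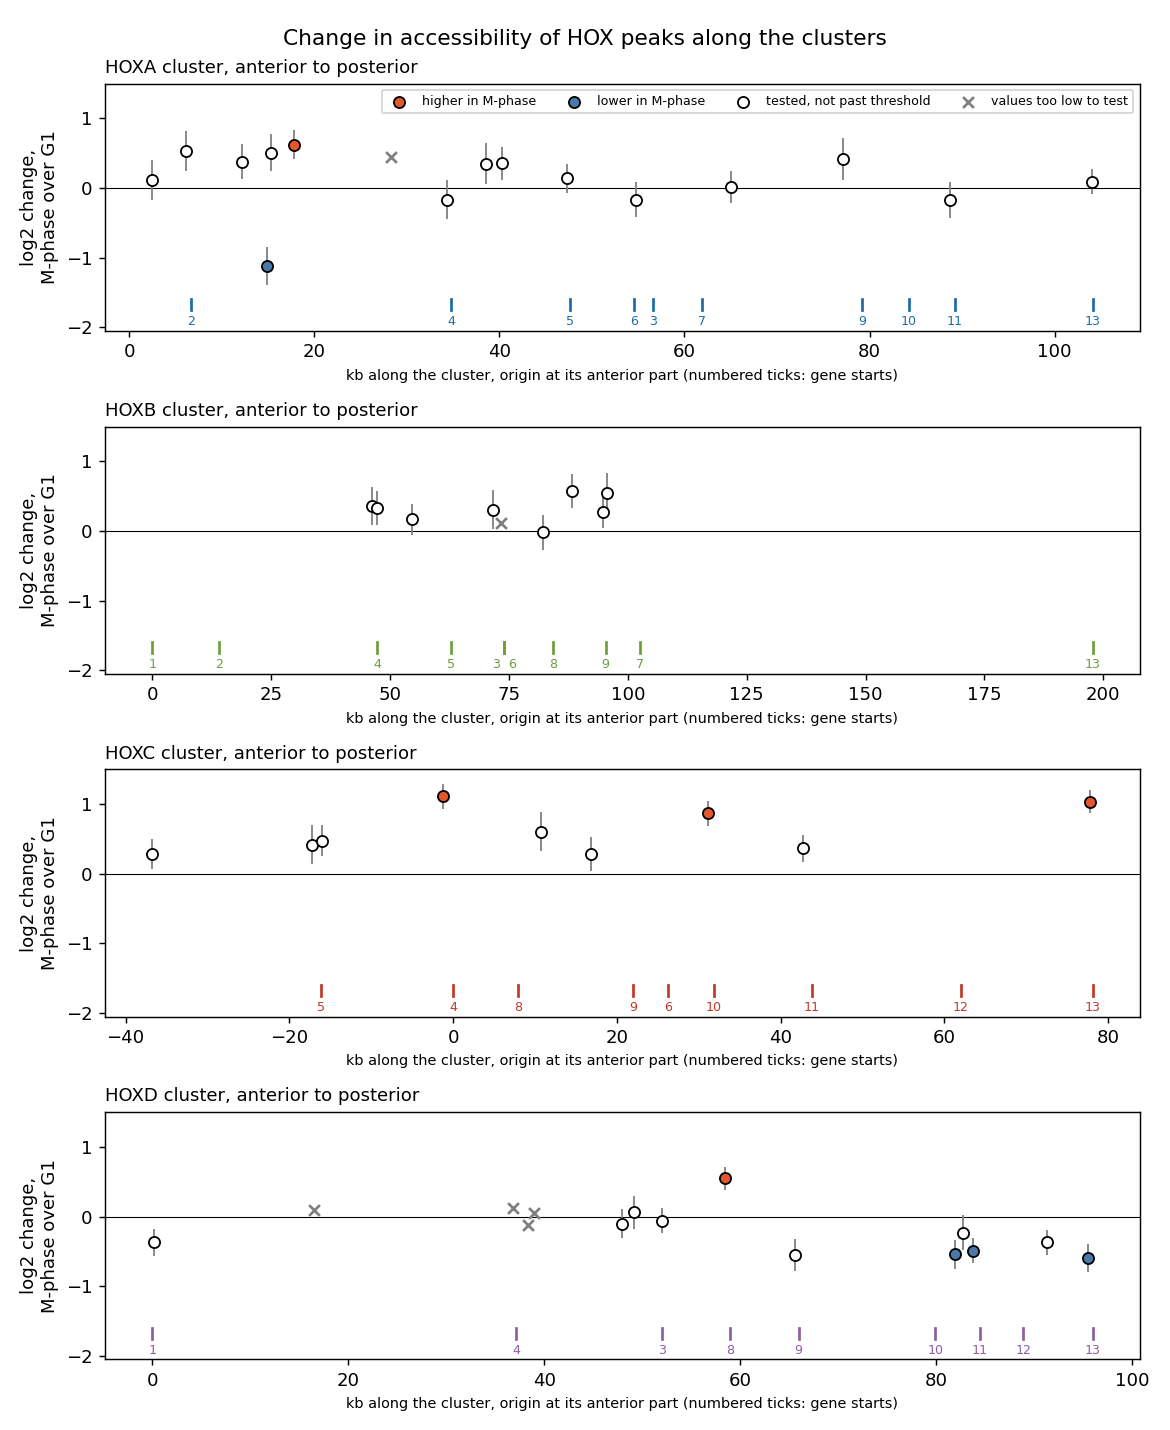
Change of HOX peaks (vertical axis, log2 of M-phase over G1) along their cluster (horizontal axis, kb from an origin in its anterior part), with bars of 1 standard error and gene starts as numbered ticks. Filled points passed the threshold in the scaling as deposited: 3 of the 5 rises lie in HOXC, and 3 of the 4 falls lie at the posterior end of HOXD.

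Members at promoters were next set beside promoters elsewhere. In the whole data set 43.2% of tested promoter peaks rose and 5.94% fell, with a median change of 0.37. Of the 22 HOX promoter peaks, 4 rose (18.2%) and 1 fell (4.55%), with a median change of 0.28. Among CpG-rich promoters, 4 of 18 HOX peaks rose (22.2%) and 0 fell, beside 51.8% and 3.58% of all such peaks, with medians of 0.21 and 0.51. The 28 other HOX peaks held 1 that rose and 3 that fell among 22 tested (4.55% and 13.6%), beside 6.51% and 15% of all other peaks. These are counts over a list, without a test of the list. HOX promoter peaks had a lower level, with a median G1 value of 82.4 beside 120.3 for all promoter peaks. Among CpG-rich promoters the medians were 86.5 and 150.4. Whether this level bears on the number of calls was not tested. The median of the HOX promoter peaks was -0.03 when libraries were set to equal totals in peaks and -0.03 under a loess scaling, while all promoter peaks stood at 0.06 and 0.05.

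**Figure D2:**
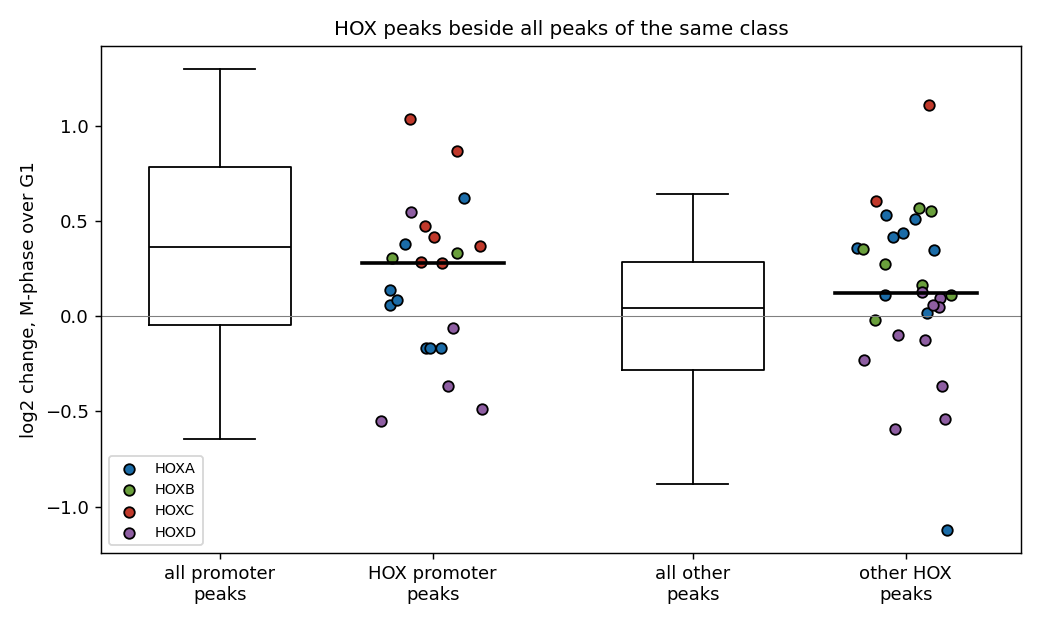
Change in M-phase over G1 (log2, vertical axis) for all promoter peaks, HOX promoter peaks, all other peaks and other HOX peaks, with boxes for the whole table (middle quartiles and median, whiskers at percentiles 5 and 95), a point for each HOX peak and a bar at the HOX median. The HOX promoter peaks have a median of 0.28 beside 0.37 for all promoter peaks, and the other HOX peaks one of 0.12 beside 0.04.

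HOXC was the cluster with the most gain. All 9 of its peaks had a positive change, 3 of them passed the test (33.3%, beside 14.3% of all tested peaks), and the median was 0.47. The M-phase libraries lay wholly above the G1 libraries at 7 of the 9, as they did at 16.6% of all peaks. Of the 9, 7 were promoter peaks, and 2 of these 7 rose (28.6%), beside 43.2% of all tested promoter peaks. The M-phase libraries lay wholly above at 5 of these 7, and at 7599 of all 16131 promoter peaks. The median of the 7 was 0.42, beside 0.37 for all promoter peaks and 0.51 for CpG-rich promoter peaks. Summed over the cluster, the G1 libraries held 1032.9, 978.2 and 907 scaled counts and the M-phase libraries 1706.8, 1723.4 and 1799.6, a ratio of means of 1.79. No library of either phase overlapped the other phase. With libraries set to equal totals in peaks, which moved the median of all peaks by -0.19, 7 of the 9 changes stayed positive and the median was 0.16, and under loess 8 of the 9 were positive with a median of 0.35.

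The largest rise of all members lay at chr12:54411254-54412725, in an intron shared by HOXC4 and HOXC6 and 360 bp from the nearest annotated start. HOXC4 and HOXC6 pattern the neck and upper trunk. Its scaled counts were 192.9, 193.8 and 166 in G1 and 393.8, 397.2 and 428.7 in M-phase. Every M-phase library was more than any G1 library by a wide margin. The means were 184.2 ± 15.8 and 406.6 ± 19.2 (SD, n = 3 each), a change of 1.11 with a standard error of 0.17 and a limma adjusted p of 2.84e-07. HOXC13, which acts in hair and nail formation, had a peak over its start at chr12:54332093-54333783 that also covers the start of the antisense gene HOXC13-AS. That peak held 302.2, 228.1 and 276 in G1 and 522.8, 583.4 and 565.4 in M-phase. The phases stood apart, and the peak rose by 1.04 with a standard error of 0.17 and a limma adjusted p of 4.61e-07. HOXC10 acts in the lower spinal cord and hindlimb, and its start peak at chr12:54378688-54380360 is shared with HOXC-AS3. Its values were 184.9, 150.8 and 158 in G1 and 277.7, 305.3 and 337.3 in M-phase, again without overlap. It rose by 0.87 with a standard error of 0.18 and a limma adjusted p of 9.11e-05. The call at HOXC13 and HOXC10 ended under the loess scaling, with changes of 0.27 and 0.33 and limma adjusted p-values of 0.0773 and 0.0814. Transposase reads carry no strand here, so a gene and the antisense gene that shares its peak cannot be told apart.

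The other 6 HOXC peaks did not pass the test. The start of HOXC5 held 52.7, 76.6 and 55 in G1 and 96.8, 88.2 and 78 in M-phase, a change of 0.47 with a limma adjusted p of 0.11. Its phases did not overlap, though the gap was narrow. The peak over the start of HOTAIR, a noncoding RNA studied for its role at HOXD, lies in an exon of HOXC11 and had a change of 0.37. Starts of HOXC4 and HOXC9 had changes of 0.29 and 0.28, the peak over the microRNA gene MIR615 one of 0.42, and a peak in an intron of HOXC6 one of 0.60. The HOXC6 peak passed the threshold, with a limma adjusted p of 0.0473, when a value of 10 was required in every library. With equal totals in peaks the values at HOXC4 and HOXC9 were -0.04 and -0.03.

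HOXD was split. Its median change was -0.12, and of 11 tested peaks 1 rose and 3 fell (9.09% and 27.3%), beside 14.3% and 13.1% of all tested peaks. The median was -0.05 without G1 replicate 3 and -0.23 without M-phase replicate 2. The cluster sum was 1921.7, 2099.2 and 2428 in G1 and 1822.1, 1977.8 and 2092.9 in M-phase, with overlap. The 6 peaks assigned to HOXD9 through HOXD13 all had a negative change, with a median of -0.51, and all 6 were negative in every alternative fit. Together they held 946.3, 1093 and 1252 in G1 and 724.7, 809.7 and 809.7 in M-phase. All M-phase sums lay below all G1 sums, at 0.71 times the G1 mean.

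HOXD13, which shapes the digits, had a peak at chr2:176957464-176958365 that begins 15 bp past its annotated start, in the exon. It held 145.1, 204.7 and 249 in G1 and 121.9, 96.4 and 171.3 in M-phase, so the highest M-phase library exceeded the lowest G1 library. The peak fell by 0.59 with a standard error of 0.20 and a limma adjusted p of 0.0199. Its call ended without G1 replicate 2 (0.0532), G1 replicate 3 (0.107), M-phase replicate 1 (0.0713) or M-phase replicate 2 (0.245), each value a limma adjusted p. HOXD11 acts in the forearm and kidney, and its start peak at chr2:176968820-176970478 held 282.3, 289.8 and 386 in G1 and 222.5, 277.3 and 180.4 in M-phase. These values did not overlap, but the highest M-phase library lay close to the lowest G1 library. The start peak fell by 0.49 with a standard error of 0.18 and a limma adjusted p of 0.0349, and without G1 replicate 3, M-phase replicate 1 or M-phase replicate 3 that p was 0.127, 0.0927 and 0.29.

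Another HOXD11 peak, in an intron at chr2:176971135-176971867 and assigned to HOXD10 by distance, held 128.2, 130.5 and 151 in G1 and 86.1, 82.8 and 106.3 in M-phase. The phases did not overlap. It fell by 0.54 with a standard error of 0.21 and a limma adjusted p of 0.0402. The adjusted p was 0.0672 with no filter on low values, and 0.064, 0.0572 and 0.0798 without G1 replicate 1, 2 or 3 and 0.147 and 0.197 without M-phase replicate 1 or 2. The sequence printed above for this peak comes from its middle. HOXD9, active in the lumbar region, had a start peak with 84.5, 99.2 and 61 in G1 and 55.2, 53.6 and 48.1 in M-phase. Its values did not overlap, and the change of -0.55 had a limma adjusted p of 0.0662, which was 0.0112 without G1 replicate 3. The peak before HOXD12 had a change of -0.37 with a limma adjusted p of 0.129. Both HOXD9 and HOXD12 passed the threshold as lower peaks under TMM, equal-total and loess scaling, with changes of -0.57 to -0.87 for HOXD9 and -0.50 to -0.98 for HOXD12.

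HOXD8, next to HOXD9 on the anterior side, moved the other way. Its start peak at chr2:176994095-176995801 had the highest M-phase mean per kb of all members, at 345.3 scaled counts per kb, after 235.7 in G1. It held 372.8, 357 and 477 in G1 and 546.3, 578.1 and 643.8 in M-phase. Every M-phase library was above every G1 library. HOXD8 rose by 0.55 with a standard error of 0.16 and a limma adjusted p of 0.00595. This direction depended on the scaling: the change was 0.20 with equal totals in peaks (limma adjusted p 0.164) and -0.32 under loess (limma adjusted p 0.0163), and without M-phase replicate 3 the adjusted p was 0.0726. In anterior HOXD, the HOXD3 start held 225.7, 245.3 and 269 in G1 and 241.8, 206.8 and 261.3 in M-phase, which overlap. The HOXD1 start, shared with the noncoding gene HAGLR, had a change of -0.37 with a limma adjusted p of 0.156. It became a called lower peak under TMM, equal-total and loess scaling, and HOXD3 did so under equal-total and loess scaling.

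**Figure D3:**
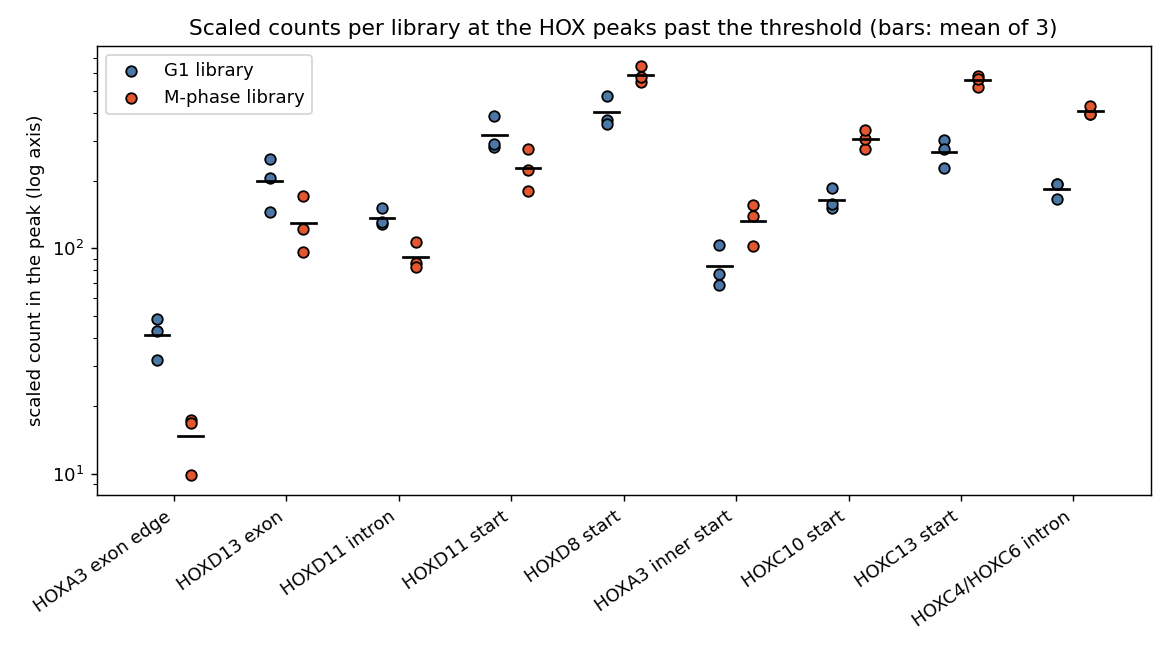
Scaled counts (vertical log axis) in each G1 and M-phase library at the 9 HOX peaks past the threshold, with bars at the mean of 3 libraries. HOXC13 runs from 228.1 to 302.2 in G1 and from 522.8 to 583.4 in M-phase, while the libraries of HOXD13 and of the HOXA3 inner start overlap.

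HOXA held both directions within a few kb of HOXA3, a gene of the pharyngeal arches and thymus. The largest fall of all members lay at chr7:27150377-27150676, a peak of 300 bp whose first bases touch an exon of HOXA3. Scaled counts there were 48.7, 32 and 43 in G1 and 17.3, 9.9 and 16.8 in M-phase, a low level but without overlap. It fell by 1.12 with a standard error of 0.28 and a limma adjusted p of 0.00097. An inner start of HOXA3 at chr7:27153008-27153892, shared with HOXA-AS2, held 103.4, 77.3 and 69 in G1 and 103, 139.7 and 155.4 in M-phase. A single M-phase library lay just under the highest G1 library. The inner start rose by 0.62 with a standard error of 0.21 and a limma adjusted p of 0.0197. Its adjusted p was 0.25 with equal totals in peaks, 0.112 under loess, 0.0537 and 0.054 without G1 replicate 2 or 3, and 0.112 and 0.154 without M-phase replicate 2 or 3. A HOXA3 intron peak with a change of 0.36 had a limma adjusted p of 0.0316 without G1 replicate 3.

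At the posterior end of the cluster, HOXA13, a limb and hindgut gene that shares its start with HOTTIP, held 285.3, 211.7 and 237 in G1 and 257.1, 241.5 and 278.6 in M-phase. The phases overlapped fully, with a change of 0.09 (95% interval -0.26 to 0.44). Under loess scaling HOXA13 was called lower at -0.50, with a limma adjusted p of 0.00411. Start peaks of HOXA4, HOXA5 and HOXA6 had changes of -0.17, 0.14 and -0.17 and were not called in any alternative fit. The median change over HOXA was 0.14, and -0.08 with equal totals in peaks and 0.27 without M-phase replicate 2.

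HOXB was the least accessible cluster. Its peaks summed to 57.6 scaled counts per kb in G1, beside 105.4 in HOXA, 93.9 in HOXC and 174.4 in HOXD. None of 8 tested HOXB peaks passed the limma threshold, beside 14.3% of all tested peaks that rose and 13.1% that fell. A positive change was seen at 8 of the 9 members and at 72984 of all 129347 peaks, and the HOXB median was 0.30. Of the 8 tested HOXB peaks, 1 reached an unadjusted limma p under 0.05. With equal totals in peaks, 5 of 9 were positive and the median was 0.03. The HOXB4 start, a gene known in blood stem cells, held 36.8, 50.8 and 46 in G1 and 45.7, 64.3 and 65.4 in M-phase, with overlap. The largest change, 0.57, belonged to a peak in an intron of HOXB7 that is assigned to HOXB9, a gene of the rib region, with a limma adjusted p of 0.0689. That p was 0.0268 without G1 replicate 1. The HOXB peaks with the highest mean scaled count, not divided by length, in an exon of HOXB9 and an intron of HOXB3, had changes of 0.27 and 0.17.

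**Figure D4:**
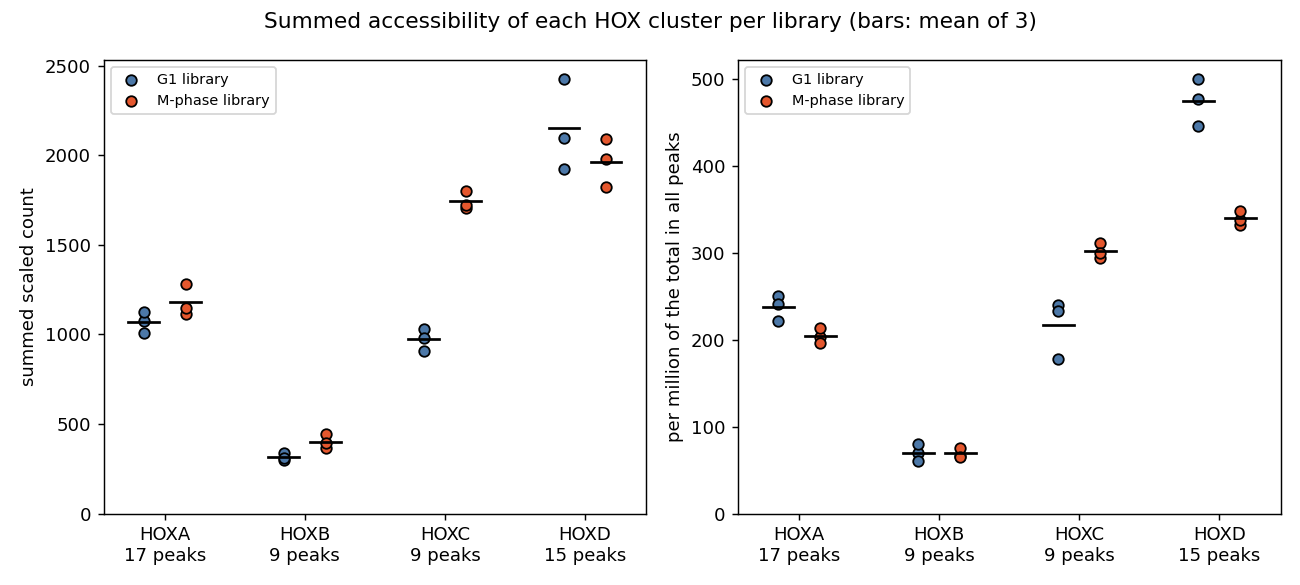
Summed scaled counts of the member peaks of each cluster in each library, as deposited and per 1000000 scaled counts in peaks of the library, with the mean of 3 libraries per phase. HOXC is higher in all M-phase libraries on both scales, while HOXD overlaps as deposited (ratio 0.91) and is lower in all M-phase libraries as a share (ratio 0.72).

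The clusters were also read per 1000000 scaled counts in peaks, since M-phase libraries held 5475345 to 6000423 scaled counts in peaks and G1 libraries 4191845 to 5092426. On this scale the ratio of means was 1.39 for HOXC, with all M-phase libraries above. HOXB stood at 0.99 with overlap. HOXA and HOXD stood at 0.86 and 0.72, with all M-phase libraries below. As deposited, the ratios were 1.10 for HOXA, 1.27 for HOXB, 1.79 for HOXC and 0.91 for HOXD. HOXC thus lay above the other clusters on both scales and HOXD below them, while the sign for HOXA turned with the scale.

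The paralogue group of the assigned gene did not order the changes in the same way in each cluster. This group can differ from the place of a peak, because the annotated HOXA3 and HOXB3 bodies run past neighbouring genes. The 3 anterior HOXB peaks lie at 54.69 to 73.34 kb along the cluster, beyond the HOXB4 peaks at 46.15 and 47.19 kb. HOXA3 intron peaks at 38.59 and 40.34 kb lie beyond the HOXA4 start peak at 34.34 kb. Anterior peaks (paralogue groups 1 to 3) had a median of 0.14, central peaks (4 to 8) of 0.29 and posterior peaks (9 to 13) of 0.09. With equal totals in peaks these were -0.04, -0.04 and -0.26. The posterior median was also -0.05 under TMM and -0.03 under loess, and 0.01 without G1 replicate 1. Posterior peaks had medians of -0.51 over 6 peaks in HOXD, 0.05 over 4 in HOXA, 0.55 over 3 in HOXB and 0.62 over 4 in HOXC. The Spearman correlation between paralogue number and change was -0.53 over the 15 HOXD peaks, -0.37 over 17 in HOXA, 0.48 over 9 in HOXB and 0.07 over 9 in HOXC. These are descriptions across peaks of the same 6 libraries, and peaks are not replicates. Among paralogues of group 13, HOXC13 rose, the HOXD13 peak fell and HOXA13 had a change of 0.09. In group 10 the HOXC10 start rose and the peak assigned to HOXD10 fell. That peak is not over a HOXD10 start. It lies in an intron of HOXD11, 141 bp from the nearest annotated start, so the 2 are not like sites.

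**Figure D5:**
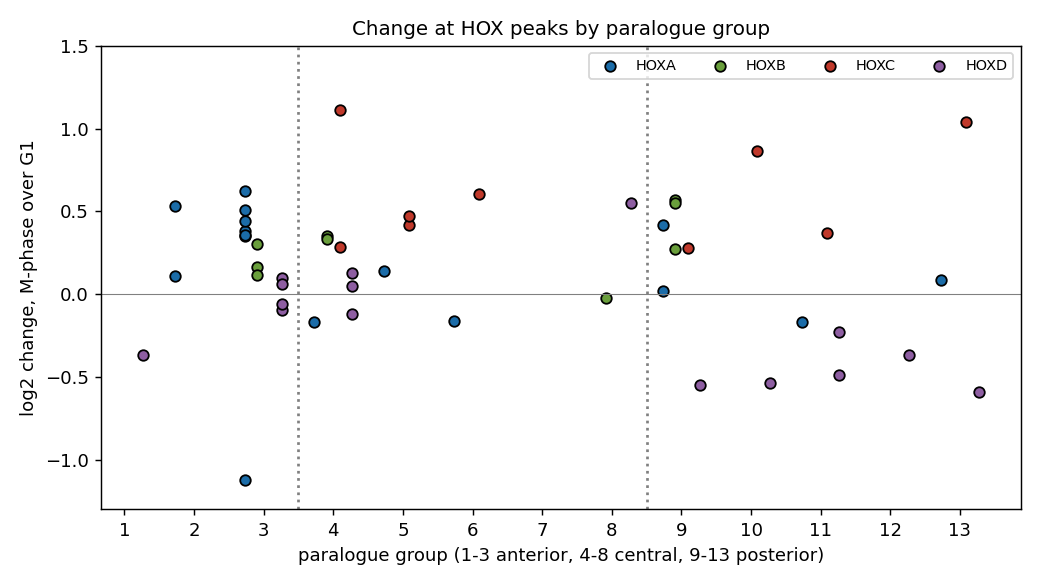
Change in M-phase over G1 (log2, vertical axis) of HOX peaks by the paralogue group of their assigned gene (horizontal axis), coloured by cluster. In groups 9 to 13 all 6 HOXD peaks lie below 0 and all 4 HOXC peaks above 0. Loess puts the peak assigned to HOXC11 at -0.03, and equal totals in peaks put the HOXC9 start at -0.03.

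Short consensus sites were searched on both strands in the central 200 bp of each peak, and no motif contains another. A short CTCF consensus was found in 2 members, beside 5.32% of all peaks and 9.64% of promoter peaks. The matches are printed for their peaks, with the letters fixed in the consensus in capitals, at chr12:54332984-54332995 in the HOXC13 start and chr2:177053151-177053162 in the HOXD1 start.
HOXC13 match: CCcggAGgcGGC
HOXD1 match: CCgagAGcaGGC
The AP-1 site TGANTCA was found in 2 members, or 4% (11.9% of all peaks, 4.72% of promoter peaks). The TEAD site GGAATG was found in 2, or 4% (12.2% and 7.12%). The HOX-PBX site TGATTNAT was found in 1, or 2% (2.71% and 0.887%), and the MEIS site TGACAG in 1, or 2% (13.7% and 8.80%). The FOX site TGTTTAC and the RUNX site TGTGGTT were found in 0 (2.85% and 4.75% of all peaks, 1.25% and 2.18% of promoter peaks). The window of 200 bp covers less of a HOX peak, with a median width of 635.5 bp, than of all peaks, with 254 bp. A match is a description of letters and not a bound site.

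Around the clusters, 83 peaks lay within 100 kb outside them, and of 40 tested 2 rose and 3 fell (5% and 7.5%, beside 14.3% and 13.1% of all tested peaks), with a median of 0.05. Of 11 neighbour genes, 6 had a promoter peak and 1 rose, SKAP2 beyond HOXA, from 126 ± 28.6 to 237.6 ± 30.4 (SD, n = 3 each), with a change of 0.89 and a limma adjusted p of 0.000172. In the reported scaling 0 of the 6 fell, but 1 was called lower with equal totals in peaks, LNPK beside HOXD at -0.45, and 2 under loess, LNPK at -0.99 and MTX2 at -0.47. Of 24 noncoding genes in the clusters, 12 had a start covered by a member peak. Of these 12 peaks 3 rose and 0 fell, or 0 and 4 under loess, where 9.99% and 14.6% of all tested peaks were called. The 3 that rose are shared with a HOX start named above. The neighbour and noncoding counts stand beside the 43.2% of all tested promoter peaks that rose and the 5.94% that fell in the reported scaling.

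Genes whose products act with HOX proteins or on HOX genes had promoter changes of their own. TALE proteins bind DNA together with HOX proteins, and 5 of 8 tested TALE promoters rose and 0 fell, or 5 and 2 under TMM, 4 and 2 with equal totals in peaks and 3 and 2 under loess. PKNOX1 rose by 1.38 and PBX3 by 1.26, and both kept their direction and call under all 3 other scalings. PKNOX2 had a change of -0.51 with a limma adjusted p of 0.0527, and was called lower under TMM, equal-total and loess scaling. Of 21 tested promoters of Polycomb genes 18 rose and 0 fell, or 15 and 1 with equal totals in peaks and 10 and 2 under loess. SUZ12, a core subunit of the complex that methylates histone H3, rose by 1.18. Its catalytic partner EZH2 rose by 0.65, and had a change of -0.23 without a call under loess. Of 15 tested promoters of Trithorax and other HOX regulator genes 12 rose and 0 fell, or 8 and 0 with equal totals in peaks and 3 and 0 under loess. KDM6B, which removes the Polycomb mark, rose by 1.47, or by 0.26 under loess. CTCF, which bounds domains, rose by 1.21, and had a change of 0.17 without a call under loess. The counts in the reported scaling stand beside 43.2% of all tested promoter peaks that rose, and 51.8% of the CpG-rich ones. Each listed gene was read at its promoter peak with the highest mean, so these shares are not matched to the lists. No such share is given for the other scalings. The median change of all promoter peaks was 0.37 in the reported scaling, 0.25 under TMM, 0.06 with equal totals in peaks and 0.05 under loess.

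T98G identity was read from promoter peaks. Of 10 astroglial and mesenchymal markers 7 had one. The SOX2 peak was too low to test, with means of 11.6 in G1 and 7.7 in M-phase. Of the 6 tested, VIM, SOX9, FN1 and CAV1 rose, beside 43.2% of all tested promoter peaks. CD44 and OLIG2 had changes of 0.42 and 0.34 without a call. Under loess FN1 and CAV1 had changes of -0.11 and 0.06 without a call. With equal totals in peaks FN1 had one of 0.24 without a call. GFAP, NES and S100B had no promoter peak. Of 9 markers of other cell types EPCAM and SYP had a promoter peak, and 0 of these 2 passed the limma test. An open promoter does not show that a gene is expressed.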

How the data were processed

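ATAC-seq was used of T98G cells synchronized in G1 (3 libraries) or M-phase (3 libraries). Chromatin fraction and input samples were not used here. Per the paper's methods and the submitters' processing notes, the authors trimmed reads with cutadapt, aligned them to hg19 with Bowtie (through QuasR), used samtools to drop mitochondrial reads, and used macs2 to call broad peaks on the merged replicates of a phase. Tool versions are not given in the sources used here, nor is how the HiSeq and NextSeq runs of an M-phase replicate were joined. A read with up to 3 locations was kept at 1 of them, so near-identical sequences can share reads. The deposited signal is a count of reads per peak, which the authors brought down to the size of the smallest library, with 0.1 as the rounding step. The deposited log2 columns hold the authors' own comparison and were not used. Of the columns with values of single samples, 0 were unused.

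A mean-variance trend model (limma 3.58.1 in R 4.3.3) was fitted over 73121 peaks to log2(scaled count + 8). A peak was tested if its values totalled at least 15 and 3 or more libraries reached the equivalent of 10 at median library size. Count models had been planned only for unscaled counts, and none was run. With 3 against 3 libraries an exact permutation test cannot go below p = 0.1. The 6 libraries held 4191845 to 6000423 scaled counts in peaks, and low peaks have wide errors. Genes came from GENCODE (release 44, lifted to GRCh37, which is hg19), and 0 peaks ran past a chromosome end. A peak was assigned to the overlapping HOX gene with the nearest start. Tables and plots were made with Python 3.11.15, pandas 2.3.3, numpy 2.4.6, scipy 1.17.1 and matplotlib 3.10.9, and the fit was tested on simulated data.

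The named peaks were those past the threshold, the start peak of each gene, the 2 with the highest mean and those with the largest rise and fall of each cluster. Of the other lists, promoters past the threshold were named, at most 4 a list. In all of those lists a gene was read at its promoter peak with the highest mean, while shares of all promoter peaks cover every such peak. Peaks and genes named outside this rule were chosen after their values were seen. A peak that is counted among the members but not reported singly is left out of the plots by position. The members and lists were chosen with earlier results of these data known. Alternatives were other scalings (TMM, equal totals in peaks, loess), a pseudocount of 1, other filters, other gene extensions, a replicate block and leaving out each library. The other scalings of the lists outside HOX were added after the data were seen.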

Additional observations from a re-analysis of the deposited data

How the results depend on the processing

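Of the 9 called peaks, 2 kept their call in every alternative fit that tested them, the HOXC4/HOXC6 intron in 13 and the HOXA3 exon edge in 12, since a minimum of 10 in every library left the latter out. The count of members called higher was 5, and 3 with equal totals in peaks and 1 under loess. The count called lower was 4, and 7 under TMM, 8 with equal totals and 11 under loess, where 17.5%, 25% and 14.6% of all tested peaks were lower. Leaving out each library gave 3 to 6 higher and 1 to 3 lower. Median changes with equal totals in peaks were -0.050 for all members, -0.078 for HOXA, 0.027 for HOXB, 0.16 for HOXC, -0.43 for HOXD, -0.041 for anterior, -0.039 for central, -0.26 for posterior, -0.032 for promoter and -0.063 for other members. Under TMM the median of all members was 0.056. Under loess it was -0.35 for HOXD and -0.031 for promoter members. With a pseudocount of 1 it was 0.25 for all members, -0.27 for HOXD and 0.23 for other members. With no extension of gene bodies it was 0.27 for all members and 0.35 for HOXA. Leaving out each library gave medians of 0.13 to 0.24 for all members, 0.096 to 0.27 for HOXA, 0.20 to 0.41 for HOXB, 0.39 to 0.66 for HOXC, -0.23 to -0.054 for HOXD, 0.080 to 0.22 for anterior, 0.13 to 0.33 for central, 0.010 to 0.14 for posterior and 0.088 to 0.22 for other members. In the lists outside HOX, loess left 3 TALE, 10 Polycomb and 3 Trithorax promoters called higher. Signs turned at single peaks. HOXD8 was at -0.32 under loess. HOXA13 was at -0.047, -0.26 and -0.50 under TMM, equal totals and loess. The peak between HOXA7 and HOXA9 was at -0.11, -0.30 and -0.024. A HOXD3 exon peak was at -0.063 under TMM and -0.26 with equal totals, and HOXA5 at -0.19 with equal totals and -0.035 under loess. With equal totals a peak before HOXA2 was at -0.078, HOXC9 at -0.025, the HOXC4 start at -0.039, a HOXB3 intron peak at -0.15 and a HOXB9 exon peak at -0.043. Under loess the HOTAIR peak was at -0.026 and HOXB8 at 0.085. Over the 6 fits without a library, uncalled peaks that turned ran from -0.13 to 0.030 (HOXD3 start), -0.12 to 0.27 (HOXD3 exon), -0.13 to 0.30 (before HOXA2), -0.33 to 0.045 (HOXA4), -0.31 to 0.026 (HOXA6), -0.093 to 0.14 (between HOXA7 and HOXA9), -0.0077 to 0.20 (HOXA13) and -0.18 to 0.18 (HOXB8). The cause of these changes was not tested. With replicate number as a block, 6 members were higher and 4 lower, and the HOXB7 intron peak assigned to HOXB9 was called at an adjusted p of 0.0495. Deviations of same-numbered libraries correlated at 0.00594, -0.0101 and 0.0284, so no shared effect of the replicate number was seen. Noise in low peaks can hide such an effect, so whether the numbers pair the samples stays unknown. Count models were not run, because low values of 2 M-phase columns could not be resolved to whole reads within the rounding. The 6 members that were too low to test were 69 to 147 bp wide, and why their values were low was not tested.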
